A study of Pinctada imbricata with 5 samples.

Results

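Transcripts matching Kazal-type inhibitors, antistasin and follistatin-like 1, secreted proteins with small disulfide-rich inhibitor or binding domains, were followed through pearl sac development in a pearl oyster. They are 4 of the 19415 unigenes (assembled transcripts) listed in the series, and each is identified by its best match in the nr protein database. They were chosen by their tag counts, which were high on days 10 and 30, so their levels by day describe that choice and support nothing further. In pearl culture a bead and a graft of mantle are implanted into a host oyster, and the graft epithelium closes around the bead as the pearl sac, which secretes nacre onto it. Oysters aged 1.5 years were sampled 10, 15, 20, 30 and 60 days after this surgery, and each day is represented by 1 library, so no value has a biological replicate. The labels name the species Pinctada imbricata and the series title Pinctada martensii. They do not say how many sacs were pooled, who donated the mantle, or whether the oysters shared anything besides age and implantation, and no group without an implant was analysed here.

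Kazal domains insert an exposed loop into the active site of serine proteases of the trypsin and subtilisin type and hold the enzyme in an inactive complex. Antistasin was described in leeches as an inhibitor of the clotting protease factor Xa, and related cysteine-rich repeats occur in cnidarians and molluscs. Follistatin-like 1 belongs to the SPARC family, carries a follistatin domain with a Kazal-like module, and in vertebrates binds ligands of the BMP and TGF-beta families, whereas follistatin itself binds activin. Secreted inhibitors of this kind are known in molluscs from hemolymph and from the mantle, whose epithelium lays down shell.

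The assay, digital gene expression profiling, counts short tags that start at a CATG cutting site of a messenger RNA. A transcript with several such sites can give several tags, and site 1 is the one nearest the 3′ end. The tags that carried nearly all copies of the inhibitors are shown here because every level in the text is a count of them, with capitals marking each CATG.
Unigene80425, Kazal-type inhibitor, site 1: CATGgacatcttcccttagag
Unigene80425, Kazal-type inhibitor, site 2: CATGggCATGgacatcttccc
Unigene80425, Kazal-type inhibitor, site 3: CATGgacatcttccttcagag
Unigene71003, Kazal-type inhibitor, site 2: CATGgaccatagtgtgctatg
Unigene58429, antistasin match, site 1: CATGtcgtccaagaccaagag
Unigene58429, antistasin match, site 2: CATGcgCATGtcgtccaagac
Unigene53180, follistatin-like, site 1: CATGgaaccagaattcgtagc

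Both Kazal-type unigenes had the same best match, a Kazal-type serine protease inhibitor of Pinctada fucata, with e-values of 5.64e-81 for Unigene80425 and 6.32e-48 for Unigene71003. Whether they are separate genes or pieces of 1 transcript cannot be told apart here. Their main tags differed from each other at 11 or more of 21 bases. Unigene58429 matched a predicted antistasin of Hydra magnipapillata (e-value 1.4e-07), and Unigene53180 matched the follistatin-like 1 precursor of the brine shrimp Artemia franciscana (2.59e-09). These distant matches name a protein family and not an ortholog. None of the 4 had a gene ontology term, whereas 50.6% of all matched unigenes had one.

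The library totals, recovered from the count and the deposited TPM, were 4700927 to 4784094 tags, of which 12.8% to 28.0% were listed for unigenes. TPM here is a tag count relative to the library total, with no correction for transcript length, and scaled TPM is TPM divided by a TMM factor of 0.878 to 1.16 per library. A scaled TPM of 10 is 41.3 to 55.5 tags. No tag was listed with fewer than 2 copies, so an unlisted unigene may still have had tags seen once, and its fold is given as a bound against a floor of 3 tags per library. The day 15 library stood apart, with Spearman's rho of 0.396 to 0.450 across unigenes against the other libraries, while days 10 and 30 were the most alike pair (0.607). Intervals are 95% intervals of counting error only.

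The 4 inhibitors together had 3860 tags on day 10 and 2599 on day 30, but 4 on day 15, 50 on day 20 and 2 on day 60. As a share of all listed tags this was 0.413% on day 10 and 0.433% on day 30, and 0.00373% or less on each of the other days. Listed tags were themselves 19.7% of the library on day 10 and 12.8% on day 30. The near-equal shares of days 10 and 30 therefore do not mean equal levels. In pooled tissue a smaller share of the cells that make a transcript and less of it per cell cannot be told apart.

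The Kazal-type inhibitor Unigene80425 had 1697 tags on day 10 and 563 on day 30, with none listed on days 15 and 20 and 2 on day 60. In scaled TPM it stood at 378 on day 10 (361 to 397), 136 on day 30 (125 to 148) and 0.368 on day 60 (0.0445 to 1.33). Day 10 was thus its highest day and day 30 the next, with intervals that did not overlap, and its 2 tags on day 60 were too few to place that day above the unlisted ones.

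Unigene71003, the other Kazal-type match, had 304 tags on day 10 and 246 on day 30 and was not listed on days 15, 20 and 60. Its scaled TPM was 67.8 on day 10 (60.4 to 75.9) and 59.6 on day 30 (52.4 to 67.5). These intervals overlapped, so its order on the 2 days was not resolved with TMM scaling.

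The antistasin match Unigene58429 had 954 tags on day 10 and 1402 on day 30 and was likewise unlisted on days 15, 20 and 60. It stood at 213 scaled TPM on day 10 (199 to 227) and 340 on day 30 (322 to 358). It was the only one of the 4 to stand higher on day 30 than on day 10.

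The follistatin-like unigene, Unigene53180, had 905, 4, 50 and 388 tags on days 10, 15, 20 and 30 and none listed on day 60. Its scaled TPM was 202 (189 to 215), 0.72 (0.196 to 1.84), 11.6 (8.6 to 15.3) and 94 (84.9 to 104) on days 10, 15, 20 and 30. It alone was listed on days 15 and 20, where all of its tags came from site 1. Its days fell in the order 10, 30, 20, 15 with no overlap between these neighbours, and day 15 was not separated from day 60.

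**Figure D1:**
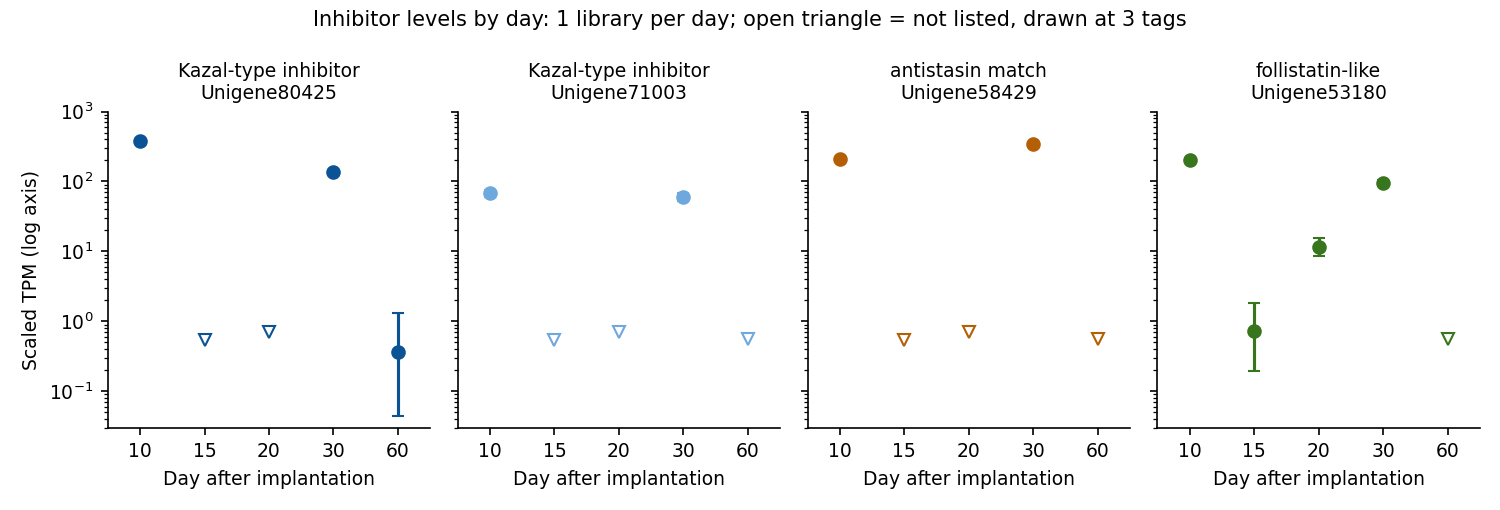
Scaled TPM (log axis) of each inhibitor against day after implantation. Filled points are the single library of that day with an exact Poisson 95% interval of the tag count, and open triangles are unlisted days drawn at the floor of 3 tags. All 4 are high on days 10 and 30, and Unigene53180 is the one with a point on day 20, at 11.6 scaled TPM.

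Neighbouring days were compared by 1 rule. A unigene was called where the larger of its levels was 10 scaled TPM or more and its ratio exceeded 2-fold over the whole interval. Since the choice of the unigenes used these contrasts, their calls are descriptive. From day 10 to day 15 all 4 inhibitors were lower, where 24% of the 1669 unigenes compared were lower. Against the floor the folds were 700 for Unigene80425, 125 for Unigene71003 and 394 for the antistasin match. The lower ends of their counting intervals, with unlisted taken as 0 tags, were 569, 101 and 320. The follistatin-like unigene fell 280-fold (109 to 1030).

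From day 15 to day 20 the follistatin-like unigene alone reached the minimum level. It was 16.1-fold higher on day 20 (5.91 to 61.3), in a comparison in which 25.2% of 1625 unigenes were higher and 27.1% lower. The Kazal-type and antistasin matches were unlisted on both days, which gives no ratio for them.

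From day 20 to day 30 all 4 were higher, against 20.2% of 1523 unigenes. Against the floor Unigene58429 was 488-fold higher, Unigene80425 196-fold and Unigene71003 85.7-fold, with lower ends of the counting interval at 397, 159 and 69.2. Unigene53180, already listed on day 20, was 8.11-fold higher (6.03 to 11.1).

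From day 30 to day 60 all 4 were lower, against 15.3% of 1525 unigenes. Unigene80425 went from 563 tags to 2, a ratio of 371-fold (102 to 3071). Against the floor the antistasin match was 616-fold lower, the follistatin-like unigene 170-fold and Unigene71003 108-fold (lower ends 500, 138 and 87.2). Compared with day 10 the day 60 library was also lower for all 4, against 19% of 1602 unigenes. The fold was 1029 for Unigene80425 (285 to 8506). Against the floor it was 386 for Unigene58429, 366 for Unigene53180 and 123 for Unigene71003 (lower ends 313, 297 and 99.4). The comparisons with days 10 and 30 share those libraries and do not repeat each other independently.

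Scaling by library totals in place of TMM changed the split of all called unigenes but none of these member calls. The share of calls that were higher went from 45.9% to 59.5% for day 15 against 10, from 48.2% to 34.8% for day 20 against 15, from 50.3% to 69.6% for day 60 against 30 and from 43.2% to 56% for day 60 against 10. With listed tags other than those of Unigene51171, the most abundant unigene, as library size, it was 67.8% for day 60 against 30 and 60.7% for day 60 against 10.

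Days 10 and 30, on which all 4 inhibitors were present, differed in how much of each was found. Unigene80425 was 2.77-fold lower on day 30 (2.52 to 3.06), and it was the single member that the rule called, in a comparison in which 12.6% of 1497 unigenes were lower and 9.02% higher. The follistatin-like unigene was 2.15-fold lower (1.90 to 2.42), and its interval reached inside 2-fold. Scaled by library totals, which moved all log2 ratios of this comparison by -0.11, it was 2.32-fold lower and was called. Unigene71003 was 1.14-fold lower with an interval that spanned no difference (0.958 to 1.35). Scaled by library totals, its ratio of day 30 to day 10 was 0.815 (0.686 to 0.967), an interval wholly on the lower side but short of the 2-fold rule. The antistasin match was 1.60-fold higher (1.47 to 1.74), also short of that rule. Among 1441 unigenes listed on both days the median log2 ratio was -0.15, with quartiles at -0.75 and 0.46, so Unigene80425 (-1.47) and Unigene53180 (-1.10) lay below the lower quartile and Unigene58429 (0.67) above the upper one.

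**Figure D2:**
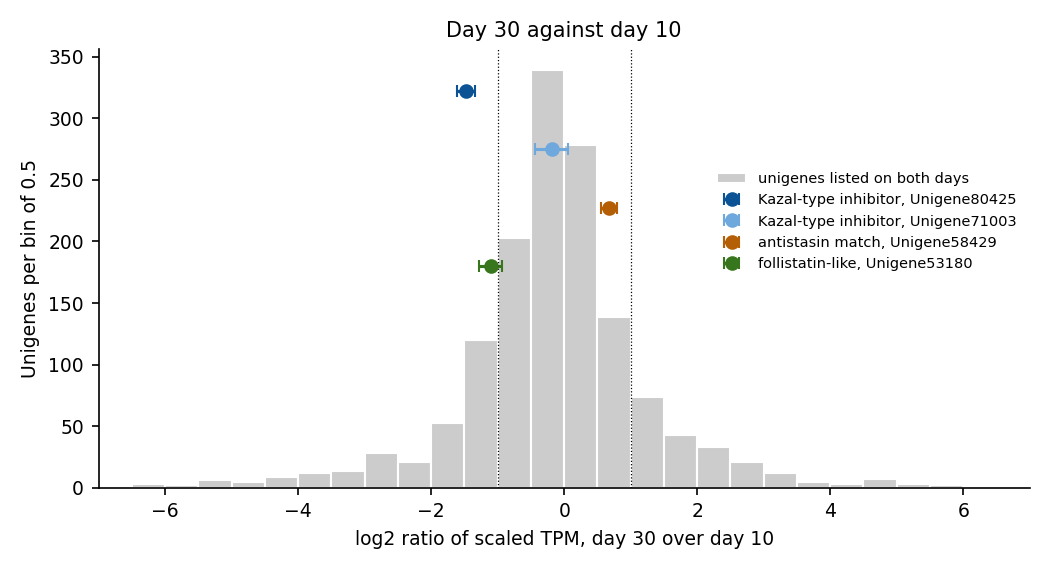
Number of unigenes (grey bars) by log2 ratio of scaled TPM on day 30 over day 10, with the 4 inhibitors as points at arbitrary height, horizontal 95% counting intervals and dotted lines at 2-fold. Unigene80425 lies left of the lower line at -1.47, Unigene58429 right of 0 at 0.67, and the interval of Unigene71003 crosses 0.

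Shares within 1 library need no scaling between libraries. Of the summed tags of the 4 inhibitors, Unigene80425 held 44.0% on day 10 (42.4% to 45.5%) and 21.7% on day 30 (20.1% to 23.3%). The antistasin match held 24.7% on day 10 (23.4% to 26.1%) and 53.9% on day 30 (52.0% to 55.9%). Both changes exceeded counting error, but shares of 1 sum are linked, so a fall in 1 raises others. The ratio of the 2 counts does not depend on that sum. Unigene80425 had 1.78 tags for each tag of Unigene58429 on day 10 (1.64 to 1.93) and 0.402 on day 30 (0.364 to 0.443). The follistatin-like unigene went from 23.4% (22.1% to 24.8%) to 14.9% (13.6% to 16.4%). Unigene71003 held 7.88% (7.05% to 8.77%) and 9.47% (8.37% to 10.7%), which overlap.

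The 2 unigenes with the same Kazal match did not keep a fixed proportion. Unigene80425 had 5.58 tags for each tag of Unigene71003 on day 10 (4.94 to 6.33) and 2.29 on day 30 (1.97 to 2.67). With 1 library per day, whether this change is larger than the spread between oysters was not tested.

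The use of CATG sites was not the criterion by which the unigenes were picked. In all, 21 distinct tags were listed for the 4 unigenes, and none of the 32257 tags of the series belonged to more than 1 unigene. Unigene53180 was counted at site 1 alone. Unigene71003 was counted at site 2 alone, with 304 of 304 tags on day 10 and 246 of 246 on day 30. Counted at site 1 alone it would have no level and no call in any comparison. Of 361 unigenes with at least 200 tags on day 10, 26 (7.20%) likewise had none at site 1, and of 289 on day 30, 22 (7.61%).

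Unigene80425 used 3 sites. On day 10 site 1 gave 1660 of 1697 tags (97.8%, 97.0% to 98.5%) and site 3 gave 37, with none at site 2. On day 30 site 1 gave 506 of 563 (89.9%, 87.1% to 92.2%), site 2 gave 32 (5.68%, 3.92% to 7.93%) and site 3 gave 25 (4.44%, 2.89% to 6.49%). The share at site 1 was lower on day 30 than on day 10 by more than counting error. Of all unigenes with at least 200 tags, 54.0% on day 10 and 52.2% on day 30 had all tags at site 1. How many of them changed their site use between these libraries was not counted, so a change common to many unigenes was not tested. On day 60 both tags came from site 3. The tag of site 2 starts 6 bases upstream of site 1 and shares 15 bases with its tag. The tag of site 3 resembles that of site 1 and differs from it by C15T and T17C, counted from 1 at the 5′ end of the tag, site 1 first.

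The antistasin match also had overlapping sites, 6 bases apart. Site 2 gave 7 of 954 tags on day 10 (0.734%, 0.296% to 1.51%) and 49 of 1402 on day 30 (3.50%, 2.60% to 4.59%). As in Unigene80425, the share of the overlapping upstream site was higher on day 30. Whether other unigenes with overlapping sites changed in the same way was not counted. At both sites a tag was listed that differs from the main tag at 1 base, C6T at site 1 and C12T at site 2, and because site 1 starts at base 7 of the site 2 tag these are the same base of the transcript. The changed base is in capitals.
Unigene58429, site 1 with C6T: catgtTgtccaagaccaagag
Unigene58429, site 2 with C12T: catgcgcatgtTgtccaagac

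At site 1 the changed tag made up 12 of 947 tags on day 10 (1.27%, 0.656% to 2.20%) and 28 of 1353 on day 30 (2.07%, 1.38% to 2.98%). At site 2 it made up 2 of 7 on day 10 (28.6%, 3.67% to 71.0%) and 18 of 49 on day 30 (36.7%, 23.4% to 51.7%). The share at site 2 lay above that at site 1 on both days with no overlap of intervals, although both tags read the same base. Among 144 pairs of overlapping neighbouring sites in all unigenes, 6 unigenes had the same base changed in both tags of a library. In 10 of the 16 such cases, counted over libraries, the upstream site had the higher share, and the median shares were 12.9% at the 3′ site and 24.0% upstream. Without Unigene58429 it was 8 of 14 cases, and 7 of the 14 came from the single unigene Unigene13610, with medians of 20.1% and 21.8%.

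Apart from C6T and C12T, tags that differed from a main tag were rare. At its most used site, tags other than the main one were 0.422% of those of Unigene80425 on day 10, 0.658% for Unigene71003, 0.663% for Unigene53180 and 0.211% for Unigene58429, or 1.48% with C6T. Over 346 sites of at least 200 tags on day 10 the median was 0.393%, with 5th and 95th percentiles of 0% and 52.0%. Each of these minor tags had 2 or 3 copies in a library. An example in Unigene80425 is A20G, 3 of 1660 tags on day 10.
Unigene80425, site 1 with A20G: catggacatcttcccttagGg

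**Figure D3:**
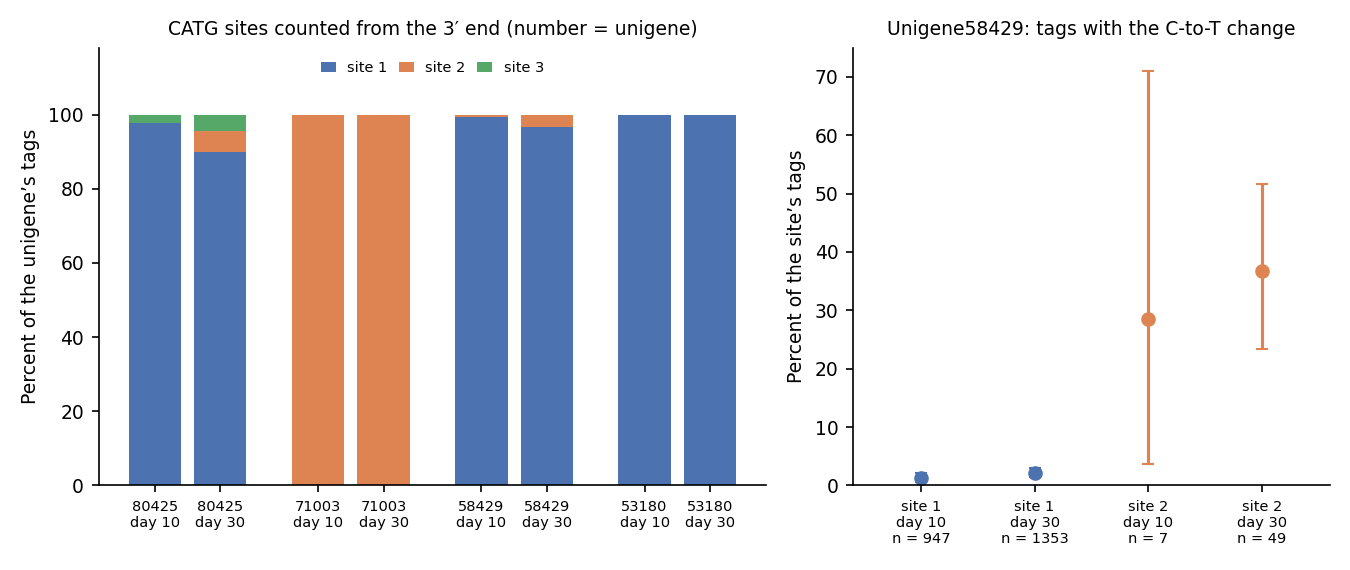
Left, percent of the tags of each inhibitor at CATG sites 1, 2 and 3 from the 3′ end on days 10 and 30. Right, percent of the tags of a site of Unigene58429 that carry the C-to-T change, with exact binomial 95% intervals and the number of tags below. Unigene71003 is counted at site 2 alone, and the changed tag is 36.7% of site 2 and 2.07% of site 1 on day 30.

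The other matches to these families were 3 unigenes under 10 scaled TPM. A follistatin-related protein (Unigene18585) had 24 tags on day 10, 6 on day 30 and none listed on the other days. A Kazal-type inhibitor match of hepatopancreas type (Unigene75396) had 12 tags on day 10 and was unlisted afterwards. A Kazal proteinase inhibitor match (Unigene11495) had 6, 6, 0, 3 and 5 tags in order of day, so it was listed on 4 of the 5 days and did not share the day 10 and 30 pattern at this depth.

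Protease inhibitors of other families were scarce. None of 19 such unigenes reached 10 scaled TPM, and together they had 11.4, 13.9, 9.27, 4.12 and 8.64 scaled TPM in order of day, without the fall on day 15 of the 4 inhibitors. Of the 19, 5 were listed on days 10 or 30 and on no other day, and 10 were listed on neither of these days, where 12.1% and 36.1% of all 19415 unigenes were. Among the former was a carboxypeptidase inhibitor match (Unigene86348), with 15 tags on day 10 and 8 on day 30. In contrast, a tissue inhibitor of metalloproteinases (Unigene84543), which blocks matrix-degrading metalloenzymes, had 30, 20 and 15 tags on days 15, 20 and 60 and none listed on days 10 and 30. These counts are too low for the calling rule. The same list held matches to proteins that carry follistatin-like domains and are known mainly as matrix proteins. Agrin (Unigene78527), in vertebrates a basement membrane proteoglycan, had 9 tags on day 10 and 17 on day 30, and SPARC (Unigene33916), a collagen-binding matrix protein, had 2 on day 20 and 6 on day 60.

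Serine proteinases are the enzymes that Kazal-type proteins bind. Of 9 unigenes with such a match 4 reached 10 scaled TPM, and 3 of these were higher and 0 lower on day 15 than on day 10, where 20.3% of all unigenes were higher. Unigene38190, matching a serine proteinase of the nematode Heterodera glycines, had 34, 15077, 4, 18 and 0 tags in order of day, and Unigene63907, with a match of the same name, had 0, 432, 0, 5 and 0. They were high on day 15, when the Kazal-type and antistasin matches were unlisted. On days 20 and 60 those matches were likewise unlisted or at 2 tags, but these 2 proteinases had at most 4 tags. A thrombin match (Unigene83879) had 14, 154, 242, 63 and 180 tags and stayed present on days 20 and 60. Unigene4483, a serine protease-like match, had 24, 78, 11, 0 and 0. The summed level of the 9 was 16.5, 2840, 60, 27.9 and 33.8 scaled TPM in order of day, and Unigene38190 alone gave 2720 of the day 15 sum. Under the minimum level, serine proteases matching Pinctada fucata (Unigene63831) and the scallop Chlamys farreri (Unigene78732) had 18 and 11 tags on day 30 and at most 2 on any other day. Of 23 unigenes matching cathepsins, metalloproteinases, calpains, legumains or caspases none reached 10 scaled TPM, and their summed level was 9.97 to 13.4 on all days.

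**Figure D4:**
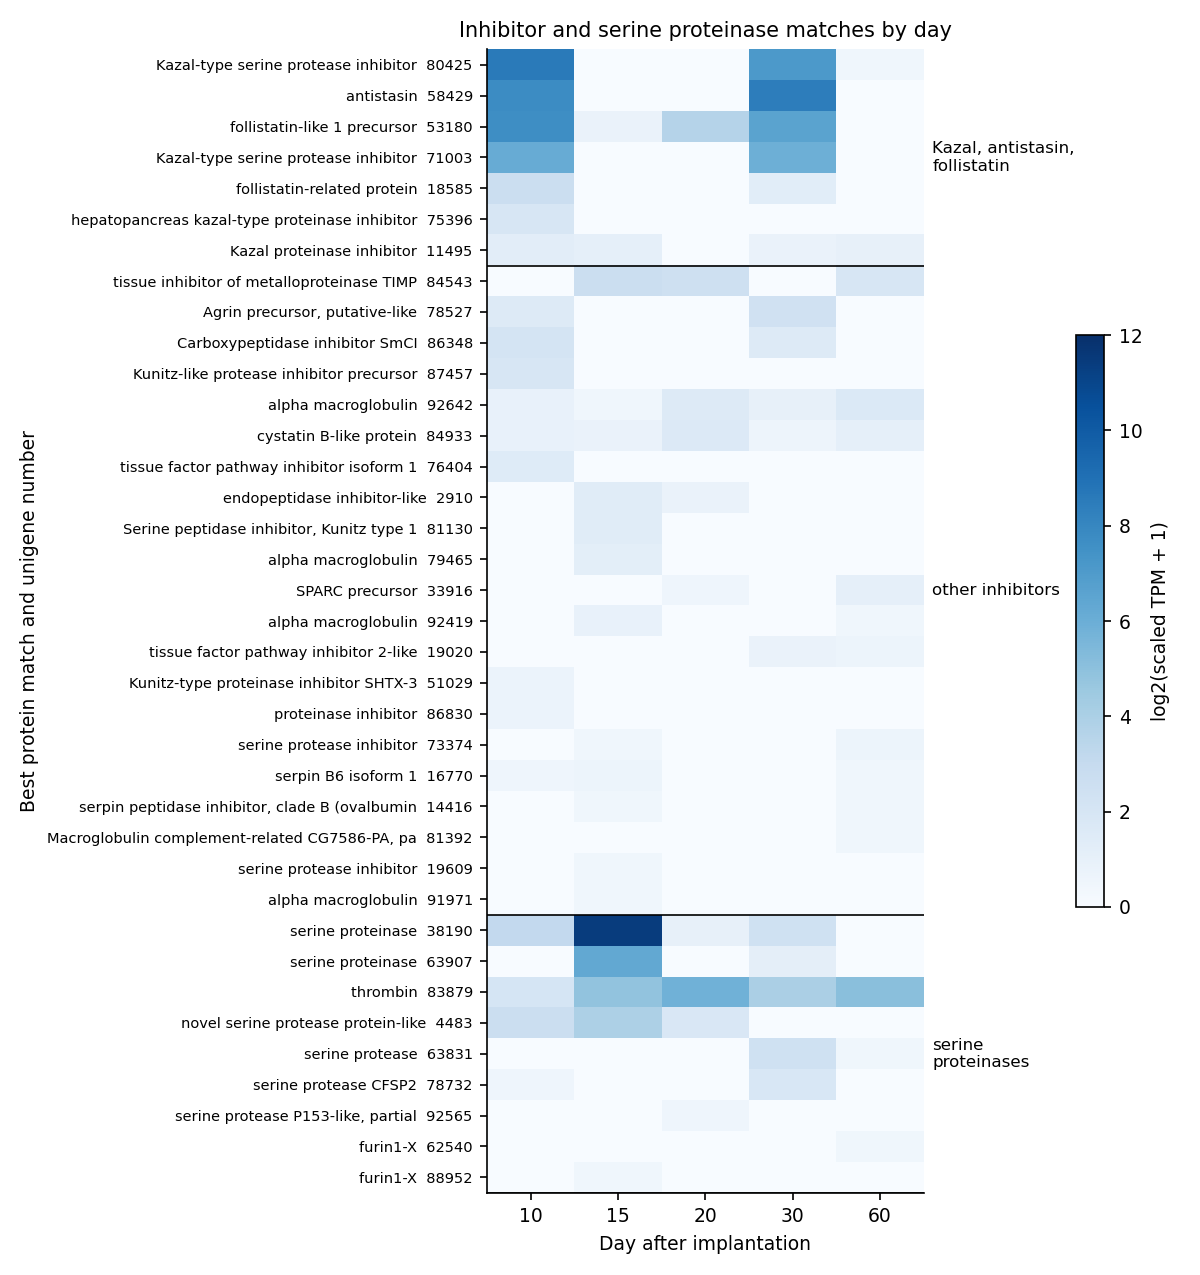
Colour gives log2(scaled TPM + 1) on each day (columns) for the 7 Kazal, antistasin and follistatin matches, 21 other matches (19 inhibitors of other families, agrin and SPARC) and 9 serine proteinase matches (rows, with unigene numbers). The 4 inhibitors are dark on days 10 and 30, and Unigene38190 is darkest on day 15.

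Few ligands or receptors of the activin, BMP and TGF-beta pathways, which follistatin-type proteins bind or modify in vertebrates, were seen. Of 9 unigenes whose match names a part of these pathways or a protein acting on them, 2 reached 10 scaled TPM. Neither of the 2 matched a ligand or receptor, and neither was called in a comparison in which it reached the minimum. This covers all 6 comparisons of days for Unigene85611 and 4 for Unigene92325, which was under the minimum on days 10, 15 and 20. Tolloid-like protein (Unigene92325), a metalloproteinase whose relatives cleave BMP antagonists in fly and vertebrates, had 36, 13, 26, 45 and 67 tags in order of day. A match to a smad nuclear interacting protein (Unigene85611) had 508, 592, 327, 350 and 700. A BMP15 match (Unigene16303) and a TGF-beta type 1 receptor match (Unigene17229) had 2 tags each, both on day 15, and no other ligand or type 1 receptor of these families was matched.

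The day 10 and 30 pattern of the 4 was shared by other unigenes. Days 10 and 30 were each called higher than each of days 15, 20 and 60 for 51 unigenes, 2.32% of the 2196 that reached 10 scaled TPM in some library. The 4 inhibitors were among them because they were picked so. A protein match was given for 13 of the 51 (25.5%), where 19.6% of the 2196 had one. Of these, 9 were not inhibitors. Tyrosinase-like protein 1 (Unigene1470), an enzyme family of the prismatic shell layer, mantle gene 5 (Unigene39109) and mantle protein 10 (Unigene59335) were matched. Also matched were a jacalin-related lectin (Unigene2003), a mitochondrial import subunit TIM44-like protein (Unigene82768) and a placental protein 11-like protein (Unigene87376). The rest matched the clam ADP-ribosylating protein CARP-1 (Unigene88974), a hypothetical protein (Unigene9022) and a predicted protein (Unigene90893). Between day 10 and day 30, 20 of the 51 stood higher and 31 lower, with a median log2 ratio of -0.27.

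Likeness to each inhibitor was measured by Pearson's r of log2(scaled TPM + 1) over the 5 libraries, a description with no test. For Unigene80425 the 3 named unigenes most alike were the TIM44-like match (r = 0.999), mantle protein 10 (0.998) and Unigene71003 (0.994). Unigene71003 was nearest to mantle protein 10 (0.999), the antistasin match (0.997) and the TIM44-like match (0.994). The antistasin match was nearest to tyrosinase-like protein 1 (0.999, listed with 1127 tags on day 10 and 2622 on day 30 and on no other day), then to Unigene71003 (0.997) and mantle gene 5 (0.994, with 153 and 395 tags). Like Unigene58429, both of these shell genes stood higher on day 30 than on day 10. For unigenes listed on days 10 and 30 alone, r reflects mainly their levels on these 2 days, so this direction is not a separate result.

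The follistatin-like unigene had other neighbours. They were the jacalin-related lectin (r = 0.988), with 85, 2, 9, 46 and 2 tags in order of day, a neurogenic differentiation factor match (Unigene89880, 0.980) and a placental protein 11-like match (Unigene87376, 0.961), with 819, 162, 151, 566 and 127 tags. The measure follows shape and not size, since Unigene89880 moved little, with 83 to 103 tags on every day. At r of 0.95 or more there were 14 unigenes for Unigene53180, of 2195 compared, and 54, 55 and 48 for Unigene80425, Unigene71003 and Unigene58429. These counts depend on the settings. At a minimum of 50 scaled TPM they were 5 and 27, 28 and 27, and for Unigene53180 the count was 30 with a pseudocount of 5 and 7 with library totals as scaling. Among the inhibitors, r was 0.984 to 0.997 between the Kazal-type and antistasin matches and 0.902 to 0.911 between each of these and Unigene53180. The inhibitors were picked for their day 10 and 30 pattern, so high values among them were fixed by that choice.

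**Figure D5:**
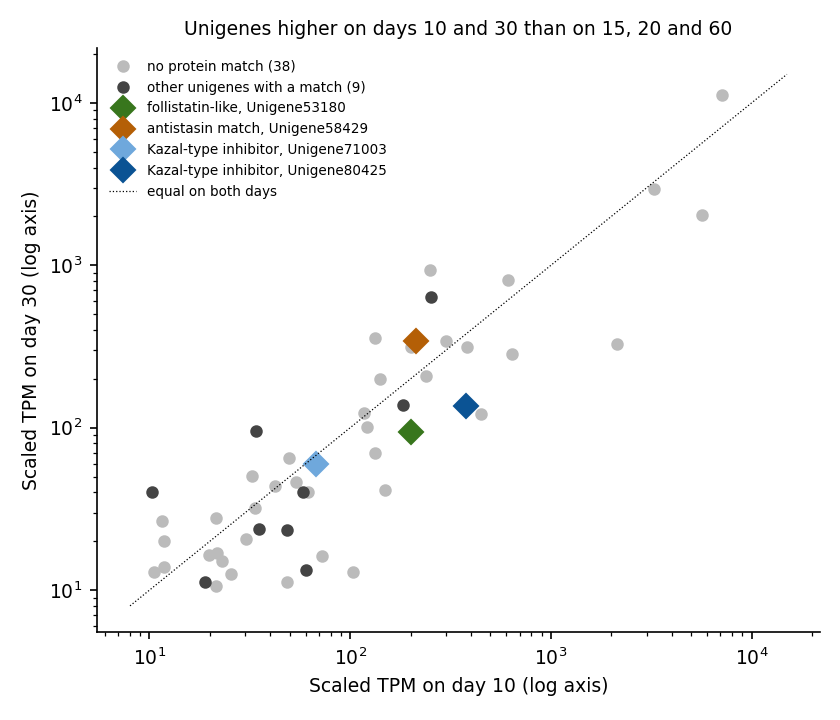
Scaled TPM on day 30 against day 10 (log axes) for the 51 unigenes called higher on both days than on days 15, 20 and 60. Diamonds are the 4 inhibitors, dark points the 9 other unigenes with a protein match and grey points the 38 without one. Unigene58429 lies above the line of equal levels and Unigene80425 and Unigene53180 below it.

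Markers of shell-forming epithelium did not follow 1 pattern. The 28 unigenes matching nacre protein, nacrein, PIF, tyrosinase or mantle genes summed to 568, 89.5, 223, 897 and 82.9 scaled TPM in order of day, and 24, 11, 11, 14 and 9 of them were listed. Tyrosinase-like protein 1 (Unigene1470) carried much of this, and the other 27 summed to 316, 89.5, 223, 262 and 82.9. Of the 28, 14 (50%) were listed on days 10 or 30 and on no other day, against 12.1% of all 19415 unigenes. Several of the 14 were listed on day 10 alone with few tags, such as nacre protein matches with 2 (Unigene29314) and 3 (Unigene12309) and a PIF match with 7 (Unigene92910). The 14 are therefore not all unigenes with the day 10 and 30 pattern. From day 20 to day 30, 5 of the 9 markers compared were higher and 3 lower, where 20.2% of all unigenes compared were higher and 18.8% lower. From day 10 to day 15, 7 of 10 were lower and 0 higher, where 24% of all were lower and 20.3% higher.

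The 12 markers of at least 10 scaled TPM show the spread. Besides Unigene1470 and mantle gene 5 (Unigene39109), mantle protein 10 (Unigene59335) was listed on days 10 and 30 alone, with 157 and 98 tags, and so was a nacre protein match (Unigene72742), with 219 and 26. Of the other nacre protein matches, Unigene14842 had 78, 5, 111, 356 and 152 tags in order of day, and Unigene30025 had 145 on day 10, 2 on day 15 and none listed later. PIF (Unigene83722), a nacre matrix protein that binds aragonite, had 160, 5, 3, 7 and 3. Some went otherwise, since mantle gene 1 (Unigene89281) had 6, 47, 450, 2 and 23 tags and was highest on day 20. Of 4 mantle gene 4 matches, Unigene29181 had 75 tags on day 20 and none listed on other days, and Unigene59776 had 277, 308 and 143 on days 10, 15 and 20 and none listed later. Unigene75755 had 79, 39, 139, 58 and 172 and Unigene79830 had 19, 63, 5, 73 and 68, so both were listed on all days. No unigene matched shematrin, MSI60, N16, pearlin, aspein or prismalin.

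Of 18 motile cilia markers, several of them matches named for sperm, 16 were listed on day 15 and 3 to 5 on the other days. Of all 19415 unigenes, 11675 were listed on day 15 and 8824 to 10456 on the other days. The summed levels of the markers were 2.23, 58, 1.85, 4.12 and 6.62 in order of day. Those of at least 10 scaled TPM were all highest on day 15. They were radial spoke 3 (Unigene73085) with 3, 64, 4, 2 and 25 tags, radial spoke head 1 (Unigene81707) with 2, 59, 2, 2 and 7, and a match to sperm autoantigenic protein 17 (Unigene88198) with 5, 135, 0, 8 and 0. Among 3 hemocyte markers only allograft inflammatory factor 1 (Unigene89534) exceeded 4 tags on any day, with 713, 144, 152, 711 and 843, and the list summed to 159, 26.7, 36.2, 172 and 155, low on days 15 and 20 like the inhibitors but not on day 60. The 8 muscle markers summed to 0.446 to 5.33. The 10 unigenes listed for digestive gland matched lipases or cathepsins, the latter also counted among the other proteinases above, so the list is not specific to that tissue. They summed to 28.5, 12.6, 18.5, 9.45 and 6.25, and among them a pancreatic lipase-related match (Unigene92137) had 101, 42, 71, 15 and 15 tags. The part of these differences in cell content in the levels of the inhibitors was not tested.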

How the data were processed

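The deposited table of each of the 5 libraries gives a count per unigene, the raw sum of its tag copies, per the file headers. It also gives a deposited TPM, by the values the count relative to the library total, and the sequence, site number and count of every tag. Per the labels' protocols RNA was extracted with Trizol and a TruSeq RNA kit was used, although that kit gives no CATG tags. Which aligner and assembly were used is not stated in the sources, and without a genome no positions can be given.

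Library totals were the median of count over TPM for unigenes of at least 5000 tags. TMM factors on these totals came from edgeR 4.0.16 and alternative size factors from DESeq2 1.42.0 (R 4.3.3). Intervals were computed with scipy 1.17.1 and numpy 2.4.6 under Python 3.11.15, and plots with matplotlib 3.10.9. Ratios carry Clopper-Pearson intervals conditional on the pair of counts, levels exact Poisson intervals and shares Clopper-Pearson intervals. With 1 library per day there was no test and no p-value. The rule was run on the whole table and checked on counts simulated with Poisson counting error and known scaling. That check held no spread between oysters and no scaling error, so it says nothing about either. The inhibitors, lists and tests were chosen with earlier results of these data known. Named were the 4 inhibitors, all other matches of their families, list members of at least 10 scaled TPM and the 3 named unigenes most like each inhibitor. Other list members were named after their values were seen. Matches by another word (nucleoplasmin, phospholipases, a macroglobulin receptor-associated protein, inhibitors among proteinases) were removed from the lists.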

Additional observations from a re-analysis of the deposited data

How the results depend on the processing

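Under every scaling tried, the 4 inhibitors were called the same way for days 15 against 10, 30 against 20, 60 against 30 and 60 against 10. Counted at site 1 alone, Unigene71003 has no tags and drops out, which leaves 3 inhibitors called in those comparisons. For day 30 against day 10, where 1 inhibitor was called, 2 were called with library totals as scaling (Unigene53180 was added) and 0 when the interval had to lie beyond 4-fold. With TMM computed without the day 15 library, an alternative chosen after seeing the data, the calls in the comparisons of days 10, 20, 30 and 60 did not change, and day 15 could not be compared. The number of unigenes at r of 0.95 or more changed for Unigene53180 from 14 to 30 with a pseudocount of 5, to 7 with library totals and to 5 at a minimum of 50 scaled TPM. At that minimum it was 27 for Unigene80425, 28 for Unigene71003 and 27 for Unigene58429, where fewer unigenes were compared. Over all unigenes, the number called was 739, 851, 593, 471, 323 and 535 for days 15 against 10, 20 against 15, 30 against 20, 60 against 30, 30 against 10 and 60 against 10. It was 1824, 1963, 1401, 1153, 893 and 1378 at a minimum of 1 scaled TPM, and 409, 494, 323, 246, 160 and 284 at 4-fold. Unigenes higher on day 60 than on day 30 went from 237 to 373 with library totals or with listed tags as library size, and those higher than on day 10 from 231 to 379 with the latter. No paired analysis was possible because each day has 1 library, and for the same reason no replicate could be left out.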
